A study of Mus musculus with 14 samples.

Results

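The genes described here are 32 mouse genes of cholesterol synthesis and sterol regulation, chosen by symbol from the 52459 gene symbols of the series. They comprise 18 enzymes of the synthesis pathway, 6 genes grouped under SREBP regulation, and 8 genes of cholesterol export, LXR signalling, esterification and lysosomal release. The 6 are called SREBP genes below, though Stard4 among them encodes a cholesterol carrier. The 8 are called export genes for short, though only Abca1 and Abcg1 among them encode exporters. All 32 symbols were found, and all 32 passed the filter on low counts, which left 17732 genes tested. Neurons were taken from the cortex of mice at E16.5 and grown in primary culture before their RNA was sequenced. BRG1 (gene Smarca4) is the motor subunit of BAF complexes, which remodel chromatin, and the knock-in embryos carried either S1382A (SA), in which alanine replaces a serine of that protein, or S1382E (SE), in which glutamate replaces it. Depolarised libraries came from cultures given 50 mM KCl for 1 h on day 6 in vitro, and basal libraries from cultures without it. The protocol for all cultures gives 1 µM tetrodotoxin and 100 µM APV on day 5 to silence spontaneous activity. There were 2 KCl and 2 basal libraries each of SA, of SE and of the wild-type littermates of the SA mice, and 1 of each treatment from a wild-type littermate of the SE mice, 14 libraries in all. The SA mice with their littermates are called the SA line below, and the SE mice with theirs the SE line. The labels do not say whether libraries came from separate embryos, pooled litters or separate cultures, so p-values measure the spread between these libraries, which may be partly technical.

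Cells make cholesterol from acetyl-CoA through mevalonate, farnesyl diphosphate, squalene and lanosterol. When sterols in the endoplasmic reticulum are scarce, SCAP escorts SREBP to the Golgi, where it is cleaved and released to activate genes of the pathway; when sterols are plentiful, INSIG proteins hold SCAP back. Oxysterols and late intermediates activate the LXR receptors, which raise genes of cholesterol export, and in the brain, cut off from blood lipoproteins, neurons and glia make cholesterol themselves and glia export part of it.

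Libraries held 22625916 to 23096206 estimated counts. Values below are CPM (counts scaled to a common library size) after TMM normalisation, unless TPM, which also divides by transcript length, is named. A principal component analysis placed 71.6% of the variance on its first axis. The summed level of 9 neuronal markers was 2730 to 3220 TPM in the SE line and 2150 to 3360 TPM in the SA line, and none of the markers of any cell type listed was at 0 throughout. The SA-line wild-type libraries numbered 1 stood apart, with the lowest neuronal sums (2150 TPM after KCl and 2220 TPM at basal). They also had the highest progenitor sums (460 and 457 TPM). They are called wild-type culture 1 of the SA line below, though the labels do not say that they share a culture. Results that depend on them are given with and without them.

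Over the 14 libraries, levels per transcript length ran from 498 ± 65.1 TPM for Hmgcs1, which makes HMG-CoA, to 1.03 ± 0.557 TPM for Nr1h3, which encodes LXR alpha (SD, n = 14 each). The synthesis enzymes Fdps (254 ± 35.8 TPM) and Sqle (153 ± 18.4 TPM) followed Hmgcs1. Srebf2, the SREBP gene most tied to cholesterol, was at 103 ± 9.23 TPM, and Srebf1, more tied to fatty acids, at 28.1 ± 13.8 TPM. The LXR target Abca1, a cholesterol exporter, averaged 17.0 TPM, and its libraries differed widely by line.

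Upstream sequences of Insig1 and Cyp51, which rose after KCl, are printed with that of Hmgcs1, which did not pass the test. Each run comes from the 250 bases before the RefSeq start on GRCm38.p6, 5′ to 3′ on the gene's strand. For Insig1 and Cyp51 it stops where the GENCODE M21 span of the gene begins. For Hmgcs1 it stops at the RefSeq start, which lies before that span. That left 201 bases for Insig1, 201 for Cyp51 and 250 for Hmgcs1. The RefSeq start lay inside the GENCODE span by 49 bases for Insig1 and Cyp51, by 105 for Idi1 and by 214 for Msmo1, so the last of these windows is mostly within the annotated gene and neither Idi1 nor Msmo1 is printed. Capitals mark matches on either strand to CCAAT (the NF-Y box), TGACGT (the core of a cAMP response element) and TCACNCCAC (a sterol response element core). On the other strand CCAAT reads ATTGG and TGACGT reads ACGTCA.
Insig1 chr5:28071162-28071362 plus strand: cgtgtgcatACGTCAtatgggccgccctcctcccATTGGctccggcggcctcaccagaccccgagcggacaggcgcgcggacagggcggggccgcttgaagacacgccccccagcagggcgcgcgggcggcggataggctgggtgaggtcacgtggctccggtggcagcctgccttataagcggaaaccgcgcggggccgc
Cyp51 chr5:4104747-4104947 minus strand: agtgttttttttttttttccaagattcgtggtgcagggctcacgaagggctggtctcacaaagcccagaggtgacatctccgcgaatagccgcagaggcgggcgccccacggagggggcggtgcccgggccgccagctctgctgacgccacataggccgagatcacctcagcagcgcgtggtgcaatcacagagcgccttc
Hmgcs1 chr13:119690101-119690350 plus strand: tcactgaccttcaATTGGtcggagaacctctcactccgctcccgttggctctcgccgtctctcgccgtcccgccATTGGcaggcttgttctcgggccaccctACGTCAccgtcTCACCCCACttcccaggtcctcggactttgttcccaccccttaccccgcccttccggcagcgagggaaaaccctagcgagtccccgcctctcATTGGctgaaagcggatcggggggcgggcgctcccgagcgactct
RefSeq windows of 300 bases were found for 26 of the 32 members. A symbol was counted if any of its windows held a match. CCAAT was found for 21 of the 26 members, against 41.1% of all 27025 symbols with a window. These were 14 of 15 synthesis enzymes, 4 of 5 SREBP genes and 3 of 6 export genes. TGACGT was found for Insig1 and Hmgcs1 (8.37% of all symbols), and TCACNCCAC for Hmgcs1 (1.44% of all symbols). The window of Msmo1 held 3 CCAAT matches, that of Idi1 held 2 and that of Cyp51 held 1, and all of these lay within the GENCODE gene spans. None of the searched motifs overlapped another within the printed runs. A match describes these letters and is not evidence of binding.

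KCl for 1 h was compared with basal over 7 KCl and 7 basal libraries, in a fit without pairing. Expression rose in 5 of the 32 genes and fell in 0, where 4.82% of the 17732 genes tested were called in either direction, 2.81% higher and 2.0% lower. The risers were Insig1 and Stard4 among 6 SREBP genes, and Idi1, Cyp51 and Msmo1 among 18 synthesis enzymes. None of 8 export genes passed the test, and DESeq2 and limma also called 0. At an unadjusted p under 0.05 there were 0 by edgeR and 1 by limma. In an alternative fit with a block for the library number, the export genes Nr1h2 and Mylip were called. The changes were small, between 1.29-fold and 1.45-fold. In bulk RNA, fewer cells of a type and less RNA per cell cannot be told apart.

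**Figure D1:**
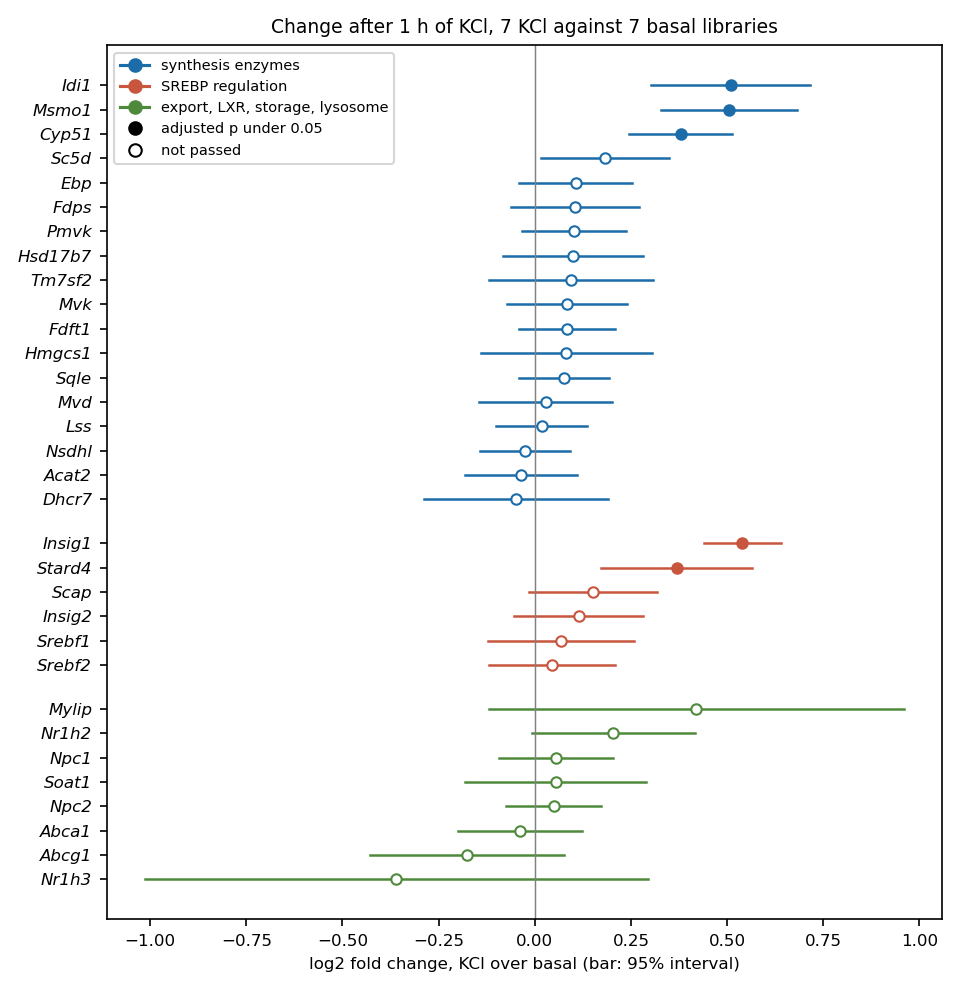
Log2 fold change (x axis) of each of the 32 genes (y axis), KCl over basal, from edgeR's quasi-likelihood fit over 7 KCl and 7 basal libraries, with 95% intervals as bars. Filled points passed an adjusted p of 0.05: Idi1, Msmo1, Cyp51, Insig1 and Stard4, all to the right of 0.

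Insig1 (chromosome 5, 28071363 to 28078662, plus strand, GRCm38) encodes the protein that retains SCAP and is itself a target of SREBP. It was at 99.1, 111 and 130 CPM in KCl libraries and at 69.1, 80.0 and 87.9 CPM in basal libraries (lowest, median and highest of 7 each). Every KCl library lay above every basal library, which held for 1.27% of all genes; the reverse held for 0 members and 0.885% of all genes. Insig1 rose by 0.54 ± 0.045 on the log2 scale (standard error; 1.45-fold; adjusted p = 6.97e-05, edgeR's quasi-likelihood test with Benjamini-Hochberg adjustment, as in all single-gene tests below). By group, Insig1 was at 109 and 111 CPM in SA with KCl and 80.0 and 79.2 CPM in SA at basal. Its SA-line wild type was at 99.1 and 100 CPM with KCl and 70.4 and 69.1 CPM at basal. SE was at 127 and 130 CPM with KCl and 81.1 and 81.5 CPM at basal, and the SE-line wild type at 124 CPM with KCl and 87.9 CPM at basal. KCl exceeded basal by 0.45 to 0.67 on the log2 scale in the 7 pairs of libraries with the same number. The transcript Insig1-201 carried 95.5% of the gene's TPM and was at 66.2 to 77.5 TPM in KCl libraries and 47.5 to 52.5 TPM in basal libraries.

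Msmo1 (chromosome 8, 64718139 to 64733792, minus strand), the methylsterol oxidase that starts removal of the C4 methyl groups, was at 130, 144 and 157 CPM in KCl libraries and 83.5, 101 and 114 CPM in basal libraries. The groups did not overlap, and Msmo1 rose by 0.51 ± 0.079 (1.42-fold; adjusted p = 0.00433, edgeR). Cyp51 (chromosome 5, 4081145 to 4104746, minus strand), lanosterol demethylase, was at 207, 230 and 256 CPM in KCl libraries and 156, 179 and 185 CPM in basal libraries. These groups did not overlap either, with a log2 fold change of 0.38 ± 0.06 (1.3-fold; adjusted p = 0.00471, edgeR). Both enzymes act in the stripping of methyl groups from lanosterol and its products. Over the 7 pairs KCl exceeded basal by 0.36 to 0.70 for Msmo1 and by 0.30 to 0.50 for Cyp51. Cyp51 overlaps Akap9 on the opposite strand, and no source used here gives strand-specific counting. The transcript Cyp51-201 carried 98.6% of its TPM.

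Idi1 (chromosome 13, 8885501 to 8892451, plus strand), which interconverts the isoprenoid building blocks, was at 81.4, 101 and 120 CPM in KCl libraries and 62.0, 68.8 and 87.8 CPM in basal libraries. The lowest KCl library (SA KCl library 2) lay below the highest basal one (SA basal library 1). KCl exceeded basal in all 7 pairs, though, by 0.21 to 0.73 on the log2 scale. Idi1 rose by 0.51 ± 0.092 (1.42-fold; adjusted p = 0.0106, edgeR). Stard4, a soluble carrier that moves cholesterol between membranes, was at 33.6, 38.0 and 42.5 CPM in KCl libraries and 24.6, 29.0 and 33.4 CPM in basal libraries. The groups were separated by a narrow gap, and the log2 fold change of 0.37 ± 0.087 (1.29-fold; adjusted p = 0.0424, edgeR) lost its call in 13 of 22 alternatives. With wild-type culture 1 of the SA line left out, its adjusted p was 0.0613.

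**Figure D2:**
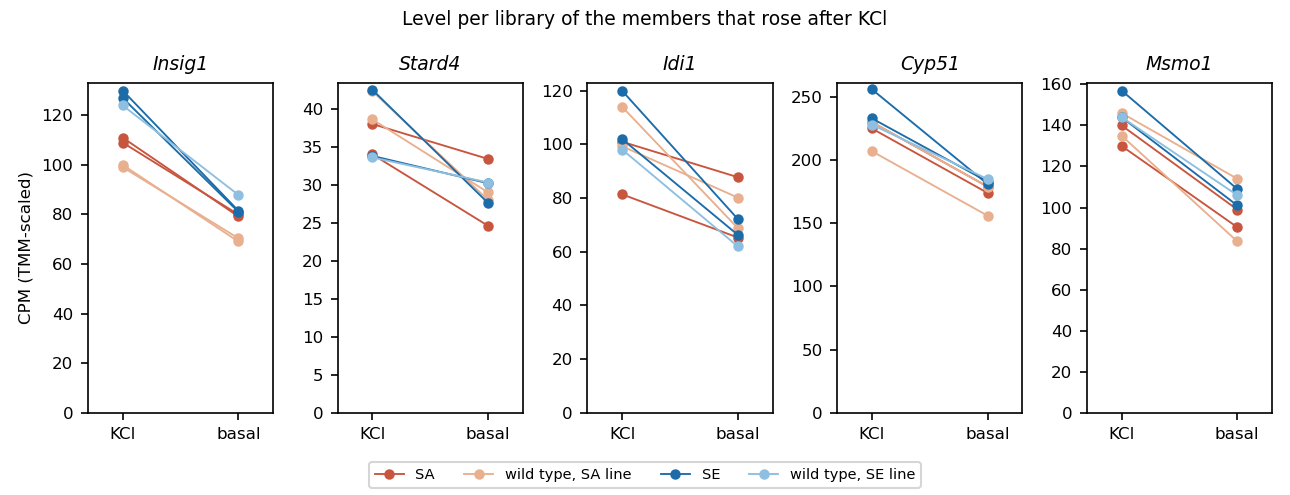
CPM (y axis, from 0) of the 5 genes that rose, in KCl and basal libraries (x axis), with a line joining libraries of the same group and number and colour giving genotype and line. All 7 lines slope down to basal in each panel, and Insig1 sits at 99.1 CPM or above with KCl and at 87.9 CPM or below at basal.

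The other synthesis enzymes showed values close to 0. Of the 18, 15 had a positive estimate and the median was 0.09, beside 52.7% positive and a median of 0.01 over all genes tested. Hmgcs1 (0.08, adjusted p = 0.888, edgeR) and Sqle (0.07, adjusted p = 0.68), the squalene epoxidase, did not pass. The highest-ranked of those that missed was Sc5d, a late desaturase, at 0.18 ± 0.074 (adjusted p = 0.298). Fdft1, squalene synthase, was higher with KCl in all 7 pairs but by 0.08 ± 0.056 only (adjusted p = 0.648). In all, 7 of the 32 genes were higher in all 7 pairs, where 6.92% of all genes were: the 5 risers, Fdft1 and Nr1h2. None was lower in all 7, which 6.34% of all genes were. The mevalonate kinase gene Mvk (0.09 ± 0.07; adjusted p = 0.766) and the late sterol genes Hsd17b7 (0.10 ± 0.081; 0.763) and Nsdhl (-0.03 ± 0.052; 0.96) did not pass, nor did Acat2 or Dhcr7 (-0.04 and -0.05).

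Among the SREBP genes, all 6 estimates were positive, with a median of 0.13 on the log2 scale. Neither transcription factor gene passed: Srebf2 had an estimate of 0.05 (95% interval -0.12 to 0.21; adjusted p = 0.934, edgeR) and Srebf1 one of 0.07 (-0.12 to 0.26; adjusted p = 0.891). The estimate of Srebf1 was negative on the TPM scale (-0.12). Scap was at 0.15 ± 0.074 (adjusted p = 0.439), and Insig2, the paralogue of Insig1, at 0.11 ± 0.075 (adjusted p = 0.648). Insig2 was at 14.2 to 17.5 CPM in KCl libraries and 13.1 to 16.8 CPM in basal libraries, which overlapped widely.

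The export genes had a median of 0.05, with 5 of 8 positive. Abca1 was at 27.8 to 185 CPM in KCl libraries and 26.1 to 190 CPM in basal libraries, with the SE line low and the SA line high, and its estimate was -0.04 ± 0.072 (adjusted p = 0.952, edgeR). Nr1h2, which encodes LXR beta, was at 0.20 ± 0.095 (adjusted p = 0.39). Mylip, an LXR target that marks lipoprotein receptors for degradation, was at 0.42 ± 0.241 (adjusted p = 0.552). Its level in wild-type culture 1 of the SA line was 7.99 CPM with KCl and 6.17 CPM at basal. In the libraries numbered 2 of that wild type it was 23.0 and 13.4 CPM. Abcg1, a second exporter, was at 9.03 to 13.1 CPM in KCl libraries and 10.3 to 14.7 CPM in basal libraries (-0.18 ± 0.113, not passed), and Nr1h3 at 0.418 to 1.47 CPM in KCl libraries and 0.639 to 2.35 CPM in basal libraries (-0.36 ± 0.292; 0.763). Without culture 1, Mylip passed at 0.45 ± 0.087 (adjusted p = 0.0162).

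Related genes were read in the same fit. None of 10 genes listed as partners in SREBP processing passed after KCl (median -0.04). Of these, 0 had an unadjusted p under 0.05 by edgeR, and 0 were called by DESeq2 or limma. That list also holds Lbr, which encodes a sterol reductase rather than a processing protein. Of 12 fatty acid genes that SREBP also regulates, 1 rose, the elongase Elovl5 (0.35 ± 0.084; adjusted p = 0.0445, edgeR). Of 8 genes of the isoprenoid branch, 1 rose, Rabggtb, a subunit of the enzyme that prenylates Rab proteins (0.28 ± 0.059; adjusted p = 0.0244). Limma on TPM called neither of these. Of 16 tested genes of cholesterol turnover, uptake and transport, 1 rose, Ch25h, cholesterol 25-hydroxylase, whose oxysterol product suppresses SREBP processing. Ch25h was scarce, at 0.318, 0.756 and 1.24 CPM in KCl libraries and 0.0428, 0.137 and 0.361 CPM in basal libraries. Its ranges overlapped slightly, and its fold was 4.0 (log2 2.00 ± 0.266; adjusted p = 0.00168). No marker of neurons, astrocytes, oligodendrocyte lineage, microglia, vascular cells, meningeal fibroblasts or progenitors passed the test after KCl (0 of 50 by edgeR, with 5 at an unadjusted p under 0.05; DESeq2 called 1, the interneuron marker Gad1, as did limma on log2(TPM + 0.1)).

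Within the SA line, 3 of the 32 genes rose and 0 fell, where 2.02% of all genes were called (1.38% higher and 0.649% lower): Insig1 (0.49 ± 0.059; adjusted p = 0.00183, edgeR), Msmo1 (0.51 ± 0.104; 0.0375) and Cyp51 (0.38 ± 0.079; 0.0461). Msmo1 lost its call in 12 and Cyp51 in 15 of 23 alternatives, the line fitted alone among them, while Insig1 kept it in all 23. Within the SE line, 2 rose and 0 fell, where 2.81% of all genes were called (1.82% higher and 0.998% lower): Insig1 (0.60 ± 0.069; adjusted p = 0.00102) and Idi1 (0.67 ± 0.141; 0.0364), which lost its call in 6 of 23 alternatives, each leaving out 1 library of that line. KCl and basal libraries did not overlap for 4 members higher in the SA line (2.92% of all genes) and 0 lower (2.47%), and for 10 higher (14.2%) and 2 lower (13.0%) in the SE line. Cyp51 and Msmo1 did not pass in the SE line in the main edgeR fit, but DESeq2 and limma at either pseudocount called them there. The difference in response was tested directly. For SE line minus SA line, 0 of 32 genes passed (0.152% of all genes did, 0.135% higher and 0.0169% lower; 0 of 32 had an unadjusted p under 0.05, and DESeq2 and limma called 0). The difference was 0.11 for Insig1 (95% interval -0.09 to 0.31), 0.29 for Idi1 (-0.13 to 0.70), 0.01 for Cyp51 (-0.26 to 0.28), -0.02 for Msmo1 (-0.37 to 0.34) and -0.09 for Stard4 (-0.49 to 0.30).

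Whether the BRG1 residue altered the response was tested against each line's own wild type. For SA minus wild type, no gene of the 17732 passed (0.0%; 122 had an unadjusted p under 0.05, and DESeq2 and limma called 0), and 0 of the 32 genes reached an unadjusted p of 0.05. The difference was -0.05 for Insig1 (95% interval -0.31 to 0.22), 0.01 for Msmo1 (-0.46 to 0.47), -0.02 for Cyp51 (-0.37 to 0.34) and -0.26 for Idi1 (-0.81 to 0.29). For SE minus wild type, no gene passed by edgeR (0.0%; 159 had an unadjusted p under 0.05, DESeq2 called 0 and limma on TPM 2 or 3, none of them members). With the SE line fitted alone, or with a block for the library number, edgeR did call genes, none of them members. In the main fit the difference, SE minus wild type, was 0.16 for Insig1 (-0.16 to 0.49) and 0.01 for Idi1 (-0.66 to 0.68), with 1 wild-type library per treatment.

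**Figure D3:**
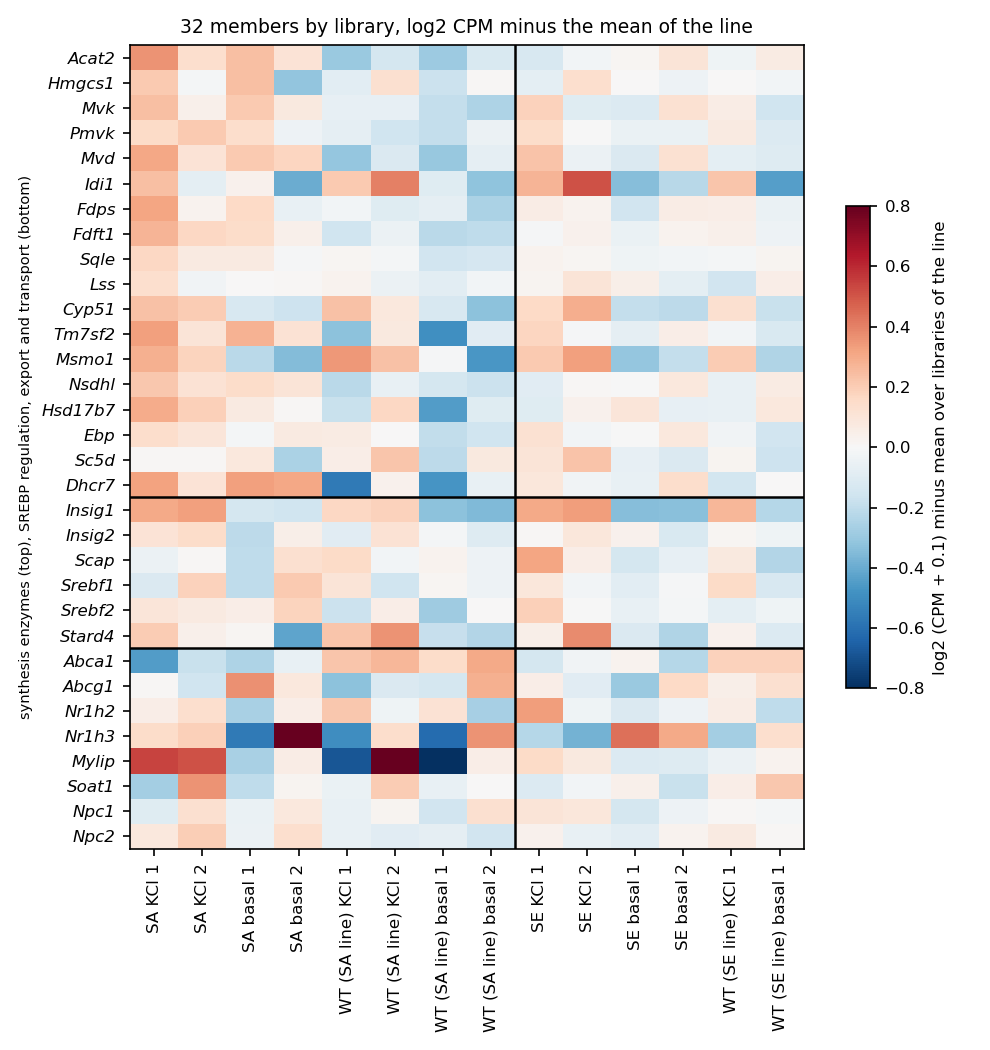
Each cell is log2(CPM + 0.1) of 1 gene (down the page, by class) in 1 library (across), minus the gene's mean over the libraries of its line, with colour capped at 0.8 in either direction. Insig1, Cyp51, Msmo1 and Idi1 are redder in KCl columns than in basal columns of the same group, and most synthesis genes are redder in SA columns than in wild-type columns of the SA line.

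SA neurons were compared with their wild-type littermates at basal. No gene of the 17732 passed (0.0%; 1279 had an unadjusted p under 0.05, and DESeq2 and limma called 0), and the lowest adjusted p was 0.621, so no member is called. Most synthesis enzymes nevertheless had higher estimates in SA: 16 of 18 were positive with a median of 0.21, where all genes had a median of 0.01, and on the log2(TPM + 1) scale 13 of 18 were positive with a median of 0.12, where all genes had -0.08. Both SA libraries exceeded both wild-type libraries for 13 of the 18 enzymes and lay below them for 0, where 19.5% of all genes were so separated upward and 14.7% downward. An unadjusted p under 0.05 was reached by 7 of the 18. The enzymes were measured in the same few libraries, so counts over them, here and after KCl, are not independent and test nothing. The median enzyme, on the log2 scale relative to its mean over the line, was at 0.144 and 0.010 in SA basal libraries 1 and 2. It was at -0.189 and -0.126 in wild-type basal libraries 1 and 2.

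Dhcr7, which makes cholesterol in the last step of one route, was at 112 and 110 CPM in SA and 64.0 and 85.3 CPM in wild type. Both SA libraries lay above both wild-type libraries, by 0.57 ± 0.200 on the log2 scale (adjusted p = 0.621, edgeR). Acat2, the acetyl-CoA acetyltransferase at the start of the pathway, was at 145 and 132 CPM in SA and 99.7 and 112 CPM in wild type, 0.38 ± 0.122 higher (adjusted p = 0.621). Its reads may be shared with a near-identical copy, so its level is uncertain. Fdft1 was at 222 and 206 CPM in SA and 172 and 174 CPM in wild type, 0.31 ± 0.105 higher (adjusted p = 0.621). Mvk was at 55.7 and 50.8 CPM in SA and 42.3 and 40.6 CPM in wild type (0.36 ± 0.13), and Nsdhl at 68.9 and 66.8 CPM in SA and 56.4 and 55.2 CPM in wild type (0.28 ± 0.097; adjusted p = 0.621 for both). Hsd17b7 was at 38.1 and 36.5 CPM in SA and 26.6 and 33.9 CPM in wild type. The 5 enzymes whose libraries overlapped included Hmgcs1 (1030 and 703 CPM in SA, 774 and 878 CPM in wild type) and Msmo1 (99.0 and 90.4 CPM in SA, 114 and 83.5 CPM in wild type).

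**Figure D4:**
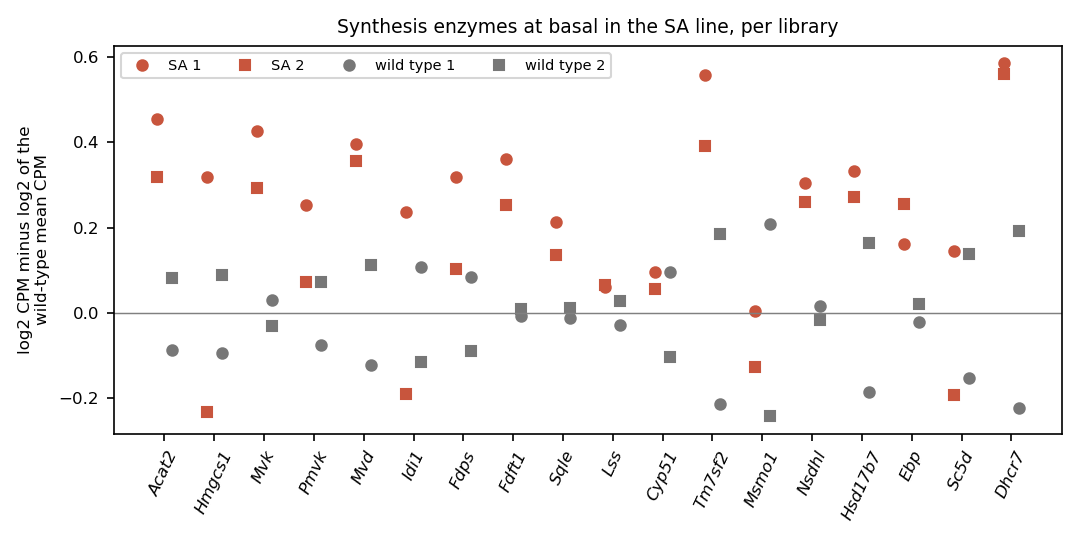
Log2 CPM minus log2 of the wild-type mean CPM (y axis) at basal for each of the 18 synthesis enzymes (x axis), with 2 SA libraries in red and 2 wild-type libraries of the SA line in grey. Both SA points lie above both wild-type points for 13 enzymes, Dhcr7 showing the widest gap from the wild-type mean, and no single gene passed the adjusted test.

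After KCl, no gene passed by edgeR (0.0%; 2040 had an unadjusted p under 0.05, limma called 0, and DESeq2 called 95 genes). The synthesis enzymes had 15 of 18 positive estimates and a median of 0.22, and 12 of 18 lay higher without overlap, where 23.8% of all genes did, and 1, Sc5d, lower, where 19.1% did, but on the log2(TPM + 1) scale only 10 of 18 were positive, with a median of 0.04 beside -0.09 for all genes. Without SA KCl library 1 the median was 0.07, with 13 of 18 positive, and without wild-type KCl library 1 it was 0.14. Dhcr7 was at 111 and 95.9 CPM in SA and 60.0 and 90.9 CPM in wild type (0.46 ± 0.200; adjusted p = 0.427, edgeR). Acat2 was at 157 and 134 CPM in SA and 99.4 and 111 CPM in wild type (0.47 ± 0.122; adjusted p = 0.32).

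Abca1 ran the other way, but the export genes as a class did not. Of the 8, 5 had positive estimates at each treatment, with medians of 0.08 at basal and 0.09 after KCl. At basal 1 lay higher without overlap, Npc2, and 1 lower, Abca1, where 19.5% and 14.7% of all genes did. After KCl 2 lay higher, Nr1h3 and Npc2, and 1 lower, Abca1, where 23.8% and 19.1% did. Abca1 was at 130 and 148 CPM in SA and 171 and 190 CPM in wild type at basal. After KCl it was at 113 and 136 CPM in SA and 180 and 185 CPM in wild type. Both SA libraries lay below both wild-type libraries at each treatment, with an estimate of -0.38 ± 0.134 at basal (adjusted p = 0.621, edgeR) and -0.55 ± 0.134 after KCl (adjusted p = 0.299). After KCl it was the 1 member that DESeq2 called (adjusted p = 0.0482).

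Sums of some markers of other cells also differed between SA and wild type. The 6 meningeal fibroblast markers summed to 37.3 to 40.3 TPM in SA and 74.6 to 89.9 TPM in wild type at basal, and 42.4 to 53.0 TPM in SA and 79.9 to 98.5 TPM in wild type after KCl. The 7 progenitor markers summed to 217 to 299 TPM in SA and 328 to 457 TPM in wild type at basal. Without wild-type culture 1, the synthesis median was 0.19 at basal (16 of 18 positive) and 0.14 after KCl (15 of 18), and the estimate of Dhcr7 was 0.38 at basal and 0.19 after KCl. The part of the markers in the result was not tested.

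The 12 fatty acid genes also had higher estimates in SA, 11 of 12 positive with a median of 0.23 at basal and 0.26 after KCl. None of the 12 was called. Over all genes tested, 50.8% were positive at basal and 50.9% after KCl, with a median of 0.01 at each. The 10 genes listed as SREBP processing partners had 4 of 10 positive and a median of -0.04 at basal. These counts, like those over the enzymes, come from the same few libraries and test nothing. Srebf2 was at 338 and 370 CPM in SA and 268 and 327 CPM in wild type at basal (0.25 ± 0.137; adjusted p = 0.621, edgeR), and Insig1 at 80.0 and 79.2 CPM in SA and 70.4 and 69.1 CPM in wild type (0.19 ± 0.084; adjusted p = 0.621). Neither passed.

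SE neurons were compared with the wild type of their line, which had 1 library per treatment and was assumed to vary like the other groups. No gene passed by edgeR at basal (0.0%; 187 had an unadjusted p under 0.05, DESeq2 called 0 and limma on TPM 1 or 2) or after KCl (0.0%; 240, DESeq2 called 1 and limma up to 2), and none of those called by another tool was a member. The edgeR result is that of the main fit. With the SE line fitted alone, edgeR did call genes at each treatment, none of them members. It also called some after KCl with no filter on low counts, again no member. In the main fit, estimates of the 32 genes ran from -0.28 (Abca1) to 0.27 (Nr1h3) at basal. After KCl they ran from -0.27 (Abca1) to 0.22 (Lss). The synthesis enzymes had medians of 0.02 at basal and 0.05 after KCl. Dhcr7 was at 105 and 121 CPM in SE and 110 CPM in wild type at basal, a difference of 0.04 (95% interval -0.50 to 0.59).

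The SE line was compared with the SA line at basal, where line, strain background and any batch cannot be told apart. Of the 17732 genes, 47.8% were called, 21.8% higher and 26.0% lower. Of the 32 cholesterol genes, 14 were called, a share near that background. The classes divided, however. Among synthesis enzymes 7 of 18 were higher and 1 lower, and among SREBP genes 0 of 6 were higher and 1 lower. Among the mixed class of export genes 0 of 8 were higher and 5 lower. Those 5 were Abca1, Nr1h2, Soat1, Npc1 and Npc2, and the second exporter, Abcg1, did not pass. Lines that did not overlap were found for 10 members with the SE line higher (26.9% of all genes) and 7 with it lower (27.7%).

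**Figure D5:**
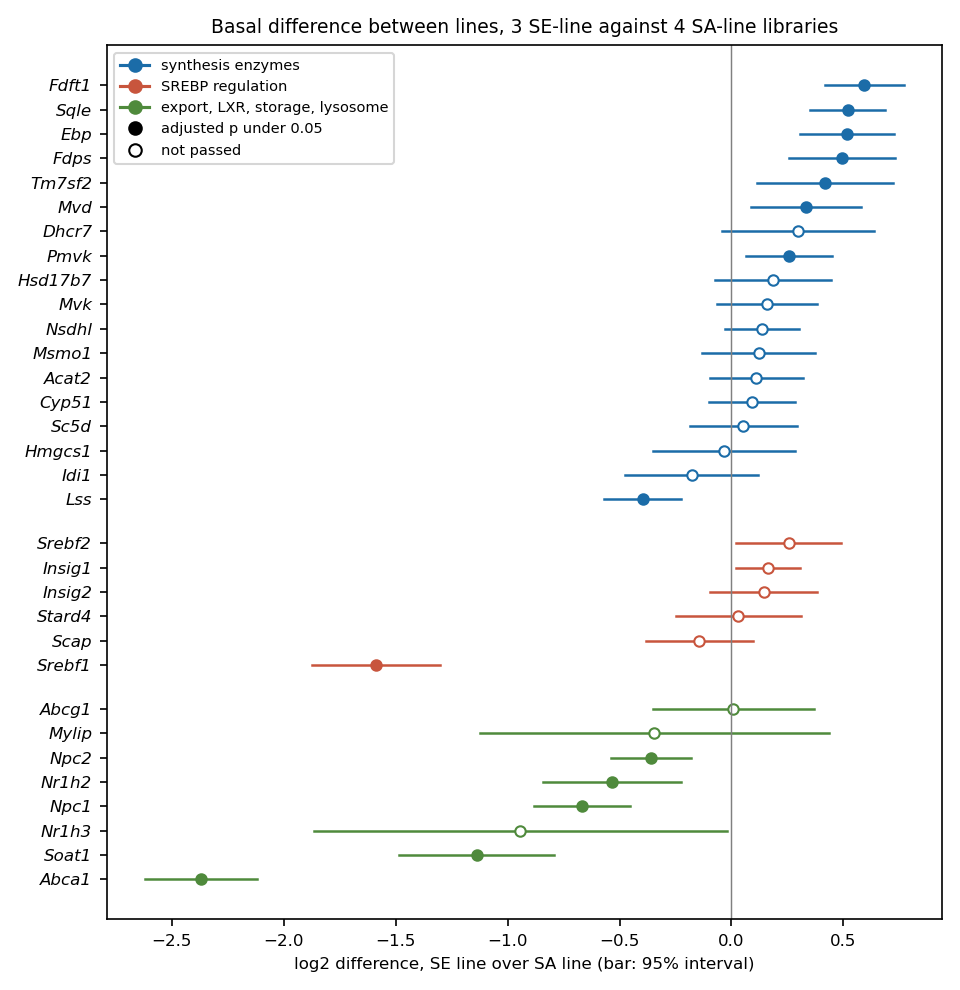
Log2 difference at basal (x axis), 3 SE-line over 4 SA-line libraries, for each of the 32 genes (y axis) with 95% intervals, filled where the adjusted p was under 0.05. Of the export genes, 7 of 8 lie below 0 and Abcg1 at 0.01, with Abca1 farthest at -2.37, and synthesis enzymes lie mostly above 0.

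Abca1 (chromosome 4, 53030787 to 53159895, minus strand) was at 31.3 and 26.1 CPM in SE and 34.9 CPM in the SE-line wild type. It was at 130 and 148 CPM in SA and 171 and 190 CPM in the SA-line wild type. Every SE-line library lay well below every SA-line library, by -2.37 ± 0.112 on the log2 scale (0.193 times; adjusted p = 1.1e-06, edgeR). Soat1, which esterifies cholesterol for storage, was at 17.0 and 14.7 CPM in SE and 19.3 CPM in its wild type, and at 33.7 and 39.4 CPM in SA and 37.2 and 38.8 CPM in its wild type. The groups did not overlap, and it fell by 1.14 ± 0.155 (adjusted p = 0.0003).

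The lysosomal cholesterol transporters were lower too. Npc1, the membrane protein, was at 40.9 and 43.8 CPM in SE and 44.6 CPM in its wild type, and at 65.8 and 72.2 CPM in SA and 61.3 and 74.4 CPM in its wild type (-0.67 ± 0.096; adjusted p = 0.000406, edgeR). Npc2, its soluble partner, was at 74.8 and 81.1 CPM in SE and 80.0 CPM in its wild type, and at 100 and 113 CPM in SA and 98.3 and 92.9 CPM in its wild type (-0.36 ± 0.08; adjusted p = 0.00469). For neither gene did the lines overlap. Nr1h2 was at 24.8 and 26.0 CPM in SE and 23.3 CPM in its wild type, and at 31.6 and 39.1 CPM in SA and 40.9 and 31.4 CPM in its wild type (-0.53 ± 0.137; adjusted p = 0.00987). Nr1h2 lost its call without SE basal library 1 (adjusted p = 0.0535), while Nr1h3 and Mylip did not pass with all libraries and fell once wild-type culture 1 of the SA line was left out (-1.16 and -0.57; adjusted p = 0.0337 and 0.00398).

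Srebf1 (chromosome 11, 60199089 to 60222581, minus strand) was at 27.6 and 29.0 CPM in SE and 26.7 CPM in its wild type, and at 72.2 and 96.3 CPM in SA and 83.9 and 80.9 CPM in its wild type. The lines were far apart, at -1.59 ± 0.127 (0.333 times; adjusted p = 1.55e-05, edgeR). The transcripts Srebf1-207 (3.20 to 4.85 TPM in SE-line libraries, 12.9 to 19.0 TPM in SA-line libraries) and Srebf1-201 (2.09 to 6.05 TPM in the SE line, 9.41 to 17.2 TPM in the SA line) were both lower. Srebf2 went the other way without passing (0.26 ± 0.104; adjusted p = 0.0676). Rai1 overlaps Srebf1 on the opposite strand. Other members called between the lines also overlap protein-coding genes. Fdps (with Gm43738) and Tm7sf2 (with Vps51) do so on the same strand. Fdft1 (with Ctsb), Npc1 (with Rmc1) and Mvd (with Gm20388) do so on the opposite strand.

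Of the 18 synthesis enzymes, those that differed ran upward, apart from Lss. Fdft1 was at 283 and 300 CPM in SE and 287 CPM in its wild type, and at 222 and 206 CPM in SA and 172 and 174 CPM in its wild type (0.59 ± 0.079; adjusted p = 0.000267, edgeR). Sqle was at 296 and 299 CPM in SE and 308 CPM in its wild type, and at 229 and 217 CPM in SA and 196 and 199 CPM in its wild type (0.52 ± 0.074; adjusted p = 0.000399). Squalene synthase and squalene epoxidase are neighbours in the pathway, and neither gene's lines overlapped. Fdps, which makes farnesyl diphosphate, was at 189 and 219 CPM in SE and 202 CPM in its wild type, and at 167 and 144 CPM in SA and 142 and 126 CPM in its wild type (0.49 ± 0.105; adjusted p = 0.0038). Ebp, a sterol isomerase, was at 16.4 and 17.5 CPM in SE and 14.8 CPM in its wild type, and at 11.8 and 12.6 CPM in SA and 10.4 and 10.7 CPM in its wild type (0.52 ± 0.094; adjusted p = 0.00157). Every SE-line library again exceeded every SA-line library in these genes.

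Lss, lanosterol synthase, was the exception. It was at 39.6 and 36.3 CPM in SE and 39.8 CPM in its wild type, and at 51.7 and 51.9 CPM in SA and 48.6 and 50.6 CPM in its wild type (-0.40 ± 0.077; adjusted p = 0.00225, edgeR). Its lines did not overlap, and it lies between Sqle and Cyp51 in the pathway. Lbr, a sterol reductase gene not counted among the synthesis enzymes here, was lower too (-1.21 ± 0.202, adjusted p = 0.000992, edgeR).

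The remaining 3 calls were less steady. Tm7sf2, a sterol reductase, was at 31.0 and 33.8 CPM in SE and 30.0 CPM in its wild type, and at 29.5 and 26.3 CPM in SA and 17.3 and 22.8 CPM in its wild type (0.42 ± 0.136; adjusted p = 0.0287, edgeR). Mvd, mevalonate diphosphate decarboxylase, was at 65.3 and 77.2 CPM in SE and 65.9 CPM in its wild type, and at 63.7 and 61.9 CPM in SA and 44.5 and 52.3 CPM in its wild type (0.33 ± 0.109; adjusted p = 0.0301). Pmvk, phosphomevalonate kinase, was at 32.8 CPM in both SE libraries and 31.5 CPM in their wild type, and at 30.5 and 26.9 CPM in SA and 24.3 and 26.9 CPM in its wild type (0.26 ± 0.086; adjusted p = 0.0328). The SE line exceeded the SA line in each. Pmvk lost its call in 9, Mvd in 7 and Tm7sf2 in 6 of 21 alternatives, among them the fits without wild-type basal library 1 of the SA line (adjusted p = 0.0871, 0.0815 and 0.0772 for Pmvk, Mvd and Tm7sf2).

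The upward lean of the synthesis enzymes depended on scale: 15 of 18 were positive with a median of 0.17 in the count fit, but 8 of 18 with a median of -0.04 on log2(TPM + 1), where the median of all genes was -0.135 and the enzymes lay 0.09 above it. The calls of Fdft1, Sqle, Fdps, Ebp and Lss held on both scales, as did those of Srebf1 and the 5 export genes.

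Most non-neuronal markers were lower in the SE line. At basal, 8 astrocyte markers summed to 279 to 310 TPM in the SE line and 1090 to 1730 TPM in the SA line, with 7 of 8 lower. The 8 oligodendrocyte-lineage markers summed to 65.5 to 72.5 TPM in the SE line and 377 to 476 TPM in the SA line, with 7 of 8 lower, and the 7 microglial markers to 19.5 to 28.9 TPM in the SE line and 95.6 to 122 TPM in the SA line, with 6 of 7 lower. All 6 meningeal markers were lower (8.09 to 11.2 TPM in the SE line, 37.3 to 89.9 TPM in the SA line), and 6 of 7 progenitor markers were, while the seventh, Eomes, a marker of intermediate progenitors, was higher (log2 3.22 ± 0.246; adjusted p = 1.21e-05, edgeR). The 9 neuronal markers summed to 3000 to 3220 TPM in the SE line and 2220 to 3360 TPM in the SA line, with 2 higher and 2 lower. Their part in the differences of the cholesterol genes was not tested.

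Related lists were read against the same background of 21.8% of all genes higher and 26.0% lower between the lines. Of 12 fatty acid genes, 6 were lower and 2 higher, led by the desaturases Scd1 (24.9 to 25.1 CPM in the SE line, 48.7 to 69.3 CPM in the SA line; -1.23 ± 0.120; adjusted p = 4.5e-05, edgeR) and Fads2 (184 to 197 CPM in the SE line, 290 to 414 CPM in the SA line; -0.86 ± 0.120; 0.000359). The calls in the other lists, 7 of 16, 4 of 8 and 5 of 10, made up shares near the 47.8% of all genes. Of 16 genes of cholesterol turnover, uptake and transport, 6 were lower and 1 higher. Lipa, the lysosomal acid lipase, was at 10.1 to 13.8 CPM in the SE line and 27.6 to 36.3 CPM in the SA line (-1.41 ± 0.173; adjusted p = 0.000164). Tspo, an outer mitochondrial membrane protein that binds cholesterol, was at 1.31 to 1.83 CPM in the SE line and 5.30 to 15.2 CPM in the SA line (-2.90 ± 0.419; adjusted p = 0.000421). Scarb2, a lysosomal membrane protein, and Lrp8, a lipoprotein receptor that also binds reelin, were lower by smaller amounts (-0.57 ± 0.088 and -0.51 ± 0.083; adjusted p = 0.000628 and 0.000876). The higher one, named after its values were seen, was Cyp46a1, the neuronal cholesterol 24-hydroxylase, at 69.0 to 87.2 CPM in the SE line and 31.6 to 57.8 CPM in the SA line (0.67 ± 0.187; adjusted p = 0.0145). Of 8 isoprenoid genes, 4 were higher and 0 lower, led by Rabggtb (0.56 ± 0.083; adjusted p = 0.000522). Of 10 genes listed as SREBP processing partners, 1 was higher and 4 were lower. The higher one was Ufd1 (0.46 ± 0.070, adjusted p = 0.000602, edgeR), which acts in protein degradation at the endoplasmic reticulum. The lower ones were led by Lbr (-1.21 ± 0.202, adjusted p = 0.000992, edgeR). Lbr encodes a sterol reductase of the nuclear envelope, so it is a sterol enzyme rather than a processing partner. Next was the site-1 protease gene Mbtps1 (-0.56 ± 0.095, adjusted p = 0.00101, edgeR).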

How the data were processed

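RNA-seq gene tables of 14 libraries were analysed. The authors' deposited tables hold estimated counts and TPM per gene and transcript, and 65.6% of nonzero gene values are not whole numbers. Kallisto 0.43.1 and the build GRCm38/mm10 are named per the submitters' processing notes; no source used here gives strand use. Estimated counts, 22625916 to 23096206 per library as deposited, were rounded and tested with edgeR 4.0.16 (R 4.3.3): quasi-likelihood fit, TMM scaling, filterByExpr, 8 group means over all 14 libraries, and Benjamini-Hochberg adjustment over 17732 genes, called at 0.05. The 11 comparisons share that estimate of spread. Deposited TPM values were used for levels and in limma 3.58.1. Alternatives were DESeq2 1.42.0 and its size factors, other filters on low counts, limma on log2(TPM + 1) and log2(TPM + 0.1), each line alone, a replicate block, leaving out each library, and leaving out wild-type culture 1 of the SA line. The 19 members called in at least 1 of the 11 comparisons are described in full. Library values are also printed for some members outside that rule, Dhcr7, Acat2, Mvk, Nsdhl and Hsd17b7 in SA against wild type among them. No rule set before the values were seen named those members. At most 4 genes of each related list are named per comparison, by lowest p, apart from Cyp46a1, added after its values were seen. The members and lists were chosen with earlier results of these data known. Libraries with the same number were not treated as pairs.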

Additional observations from a re-analysis of the deposited data

How the results depend on the processing

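Across 7 KCl and 7 basal libraries, Insig1, Cyp51, Msmo1 and Idi1 kept their calls in 22 of 22 alternatives, and Stard4 in 9 of 22. Of the 32 genes, 8 were called with the replicate block (2328 of all genes, against 854 without it), the export genes Nr1h2 and Mylip among them. In the SA line 1 was called when that line was fitted alone (166 genes, against 359) and 6 with the block (1040). In the SE line 4 were called by DESeq2, 4 by limma at either pseudocount and 4 with wild-type culture 1 of the SA line left out, 5 when the line was fitted alone (1638 genes, against 499) and 5 with the block (1771). For SA against wild type after KCl, DESeq2 called 1 (95 genes), and a crossed replicate block, chosen after seeing the data, 2 (853 genes). The line difference in response had 27 genes called, against 56 with no filter on low counts, 65 by DESeq2, 146 with the block and 40 with that culture left out. Leaving out single libraries gave 4 to 5 members for KCl in all libraries, 1 to 3 in the SA line, 1 to 4 in the SE line and 11 to 15 between lines, and 0 to 0 in the other comparisons. The causes were not tested. Same-numbered libraries deviated together in SA (correlation 0.647) and the SA-line wild type (0.836) but not in SE (-0.0996), so the block rests on a shared number only.

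Estimates after KCl that were not called and changed sign were those of Mvd (-0.005, -0.010, -0.004 and -0.000, in a range of -0.010 to 0.070 over fits that leave out 1 library), Lss (-0.086 and -0.091 on log2 TPM, -0.002 with wild-type culture 1 left out, and -0.004 to 0.056 leaving out 1 library), Srebf1 (-0.122 and -0.126 on log2 TPM), Abca1 (0.000 and 0.001, in a range of -0.077 to 0.001), Soat1 (-0.046, in a range of -0.046 to 0.137), Dhcr7 (0.014 and 0.028, each without 1 wild-type library of the SA line) and Nsdhl (0.001 with wild-type culture 1 left out). The SE-line wild type has 1 library per treatment, so its spread was taken from the other groups.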
